A study of Mus musculus with 12 samples.

Results

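The 40 genes described here encode enzymes that turn glucose and serine into the building blocks of RNA and DNA. They were listed by symbol from pathway knowledge, with earlier results of these data known, as 7 genes of the pentose phosphate pathway, 13 of purine synthesis, 5 of pyrimidine synthesis, 7 of deoxynucleotide synthesis and 8 of serine and folate metabolism. All 40 were found among the 24421 genes of the RNA-seq counts, and 39 were among the 12252 genes that passed the filter on low counts. The gene that did not pass was Phgdh, which encodes the enzyme of the first step of serine synthesis. It was at 0 to 1.98 CPM (counts scaled to the library's gene reads after TMM adjustment). The level of Phgdh is uncertain, since 63.1% of its 50-base words also occur in other annotated genes. A part of its reads could have been left out or assigned there, which was not tested.

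The pentose phosphate pathway branches off glycolysis at glucose 6-phosphate. Its oxidative arm makes NADPH and ribulose 5-phosphate, and its non-oxidative arm interconverts sugars so that ribose 5-phosphate can be made or returned to glycolysis. Purines are assembled on ribose 5-phosphate, while the pyrimidine ring is closed first and joined to the ribose afterwards. Ribonucleotide reductase turns ribonucleotides into deoxyribonucleotides for DNA, and serine feeds the folate cycle, which donates carbons to purines and to thymidylate. Cardiomyocytes still divide before and shortly after birth, when they need these precursors for new DNA.

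The RNA-seq covered cardiomyocytes of CD1 mouse hearts at postnatal day 1, in 4 groups. Tnnt2low and Tnnt2high cells came from 4 Glut1 transgenic hearts (αMHC-hGLUT1 tg with αMHC-Cre tg and the R26+/YFP reporter), numbered 3, 4, 5 and 8, each of which gave 1 library of either population. The same populations came from WT hearts, with 2 libraries each, which the labels call wild type and the study describes as αMHC-Cre tg with the R26+/YFP reporter. All groups thus carried the Cre driver and the reporter of the cardiomyocyte lineage, and the groups called Glut1 also carried human GLUT1, a glucose transporter, under the αMHC promoter, which is active in cardiomyocytes. Both WT label numbers begin with heart 9, so the 2 WT libraries of a population may come from 1 heart. P-values that involve WT would then count 1 heart as 2 replicates and include no spread between WT hearts. The spread they use was estimated over all groups together, and so largely between Glut1 hearts. Cells were sorted by Mitotracker and YFP rather than by Tnnt2, and Mitotracker-high libraries are called Tnnt2low here, after the study.

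Gene reads numbered 4065306 to 9815069 per library, with a median of 8128850 in Glut1 Tnnt2low and 4230210 in Glut1 Tnnt2high libraries. Per gene read, Glut1 Tnnt2low libraries held 0.962 ± 0.0758 (SD, n = 4) reads outside exons and Glut1 Tnnt2high libraries 2.38 ± 0.169 (SD, n = 4). In WT the ratio was 1.31 ± 0.258 (SD, n = 2) in the Tnnt2low population. It was 1.67 ± 0.228 (SD, n = 2) in the Tnnt2high population. Tnnt2 itself, at 12650 CPM or more in every library, fell in Glut1 Tnnt2low against Tnnt2high (log2 fold change of -0.42, SE 0.09, adjusted p = 0.00723, edgeR), whereas the WT difference was -0.04 (SE 0.13, adjusted p = 1). Summed fibroblast and matrix markers (13 genes) were 79.0 to 161 CPM in Glut1 Tnnt2low and 284 to 1133 CPM in Glut1 Tnnt2high libraries, and summed endothelial markers (12 genes) were 10.4 to 97.1 against 40.9 to 324 CPM. In WT, the same sums were 155 to 294 against 142 to 613 CPM and 15.4 to 117 against 18.8 to 415 CPM. No gene of either list was at 0 in all libraries, and the 15 cardiomyocyte markers summed to 149568 to 189545 CPM over the 12 libraries. Reads counted as mouse Slc2a1 were at 33.5 to 92.5 CPM in the Glut1 libraries and at 13.3 to 28.9 CPM in WT, without overlap. Reads were mapped to the mouse genome only, and whether reads of the human transgene entered this count was not tested. The libraries of hearts 4 and 8 held the Y-linked gene Ddx3y at 56.4 to 65.2 CPM, and the other 8 libraries at no more than 0.507 CPM. Xist, an X-linked RNA, was at 0 to 4.65 CPM in hearts 4 and 8 and at 199 to 504 CPM in the other 8 libraries.

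Per length, the 40 genes spanned a wide range of levels (RPKM, which divides CPM by the length of the main annotated transcript in kilobases). Adssl1, the muscle form of adenylosuccinate synthase, had the highest median over the 12 libraries at 116 RPKM (79.9 to 166). The next were Taldo1 at 75.3 RPKM (53.0 to 108) and Pgls at 49.3 RPKM (36.4 to 89.8), which encode transaldolase and 6-phosphogluconolactonase of the pentose phosphate pathway. Paics, a purine enzyme that carries out consecutive steps of the ring assembly, followed at 46.4 RPKM (40.5 to 81.5). G6pdx, which encodes the glucose 6-phosphate dehydrogenase that opens the pathway, was near the lower end at 1.68 RPKM (0.964 to 2.50). Tyms, which encodes thymidylate synthase, was at 1.73 RPKM (0.611 to 3.44) and Mthfd1l, a mitochondrial folate enzyme, at 1.55 RPKM (0.594 to 2.30). The ranges of neighbours in this order overlapped throughout. Within each of the 12 libraries, however, Adssl1 was above Taldo1 and Taldo1 above Pgls. The order of the other adjacent genes was not tested.

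**Figure D1:**
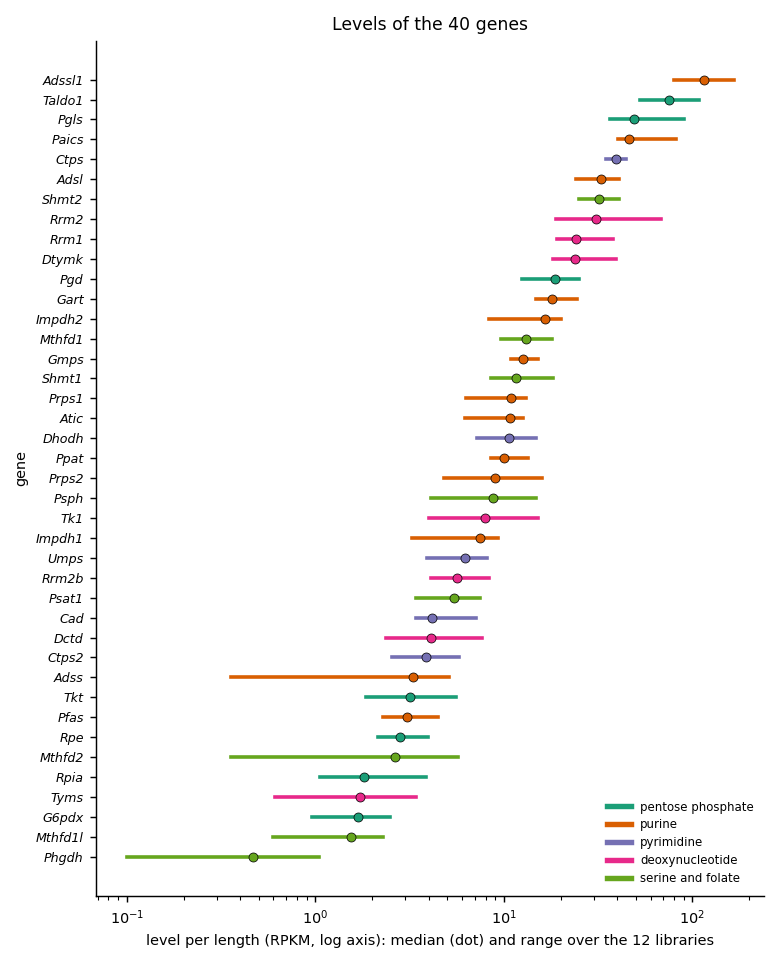
Level per length of each of the 40 genes (RPKM, log axis), with the median as a dot and the range over the 12 libraries as a line, coloured by branch. Adssl1 and Taldo1 stand highest, and Phgdh, which was at 0 in some libraries and is drawn from 0.1, stands lowest. The place of Phgdh is uncertain, since 63.1% of its 50-base words also occur in other annotated genes.

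In Glut1 transgenic hearts, 5 of the 39 genes differed between Tnnt2low and Tnnt2high cells at an adjusted p under 0.05. Taldo1, Paics and Adssl1 fell in Tnnt2low cells, and Rrm1 and Rrm2, which encode the subunits of ribonucleotide reductase, rose. In bulk libraries such as these, fewer cells with a transcript and less RNA per cell cannot be told apart. This share was below that among all 12252 genes tested, of which 16.7% were called, 8.42% higher and 8.33% lower. The libraries of the 2 groups did not overlap for 7 of the 39 genes (1 higher, 6 lower), beside 22.2% of all genes. The median log2 fold change of the 39 genes was -0.19, beside -0.01 for all genes, with 26 of the 39 negative, beside 50.4% of all genes.

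The calls of each direction lay in different branches. Pentose phosphate genes had a median of -0.53 with all 7 negative (1 called), purine genes -0.10 with 9 of 13 negative (2 called lower) and pyrimidine genes -0.07 with 4 of 5 negative (0 called). Deoxynucleotide genes had a median of 0.20 with 4 of 7 positive (2 called higher), and the 7 serine and folate genes tested had a median of 0.09 with 4 positive (0 called). At an unadjusted p under 0.05, edgeR gave 10 of the 39 genes, beside 31% of all genes, of which 0 were pyrimidine and 1 serine and folate genes. DESeq2 called none of either branch after adjustment. The deoxynucleotide median turned to -0.14 without heart 8 in Tnnt2low, and the pyrimidine median was 0.02 without heart 3 and 0.00 without heart 4 in Tnnt2low, while all 7 pentose phosphate genes were negative in each fit without 1 library. Of the 12 fits that left out 1 library each, Taldo1 passed in 12, Adssl1 and Paics in 7, Rrm2 in 6 and Rrm1 in 3. Without hearts 4 and 8, a setting chosen after seeing the data, edgeR called 0 of the 39 and 0 of all genes, with 4 of the 39 at an unadjusted p under 0.05.

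**Figure D2:**
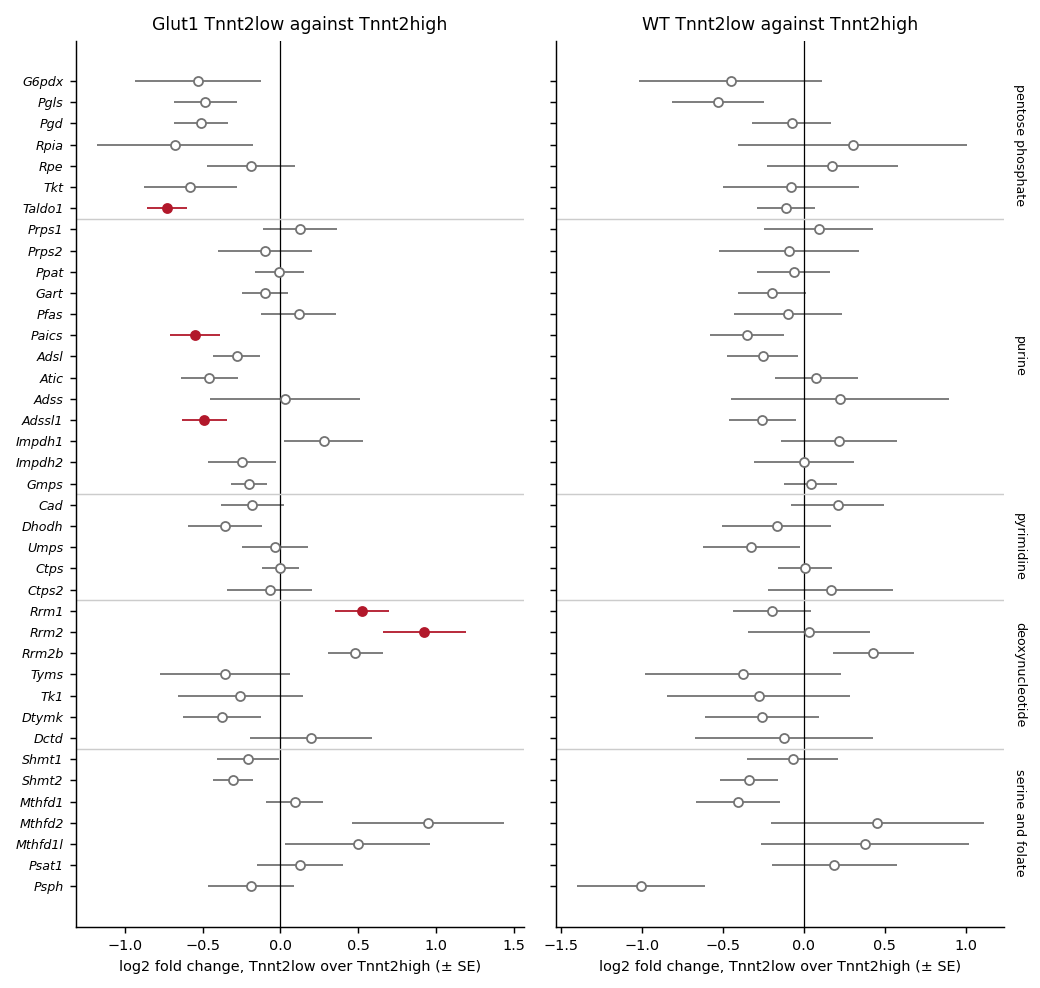
Log2 fold change of Tnnt2low over Tnnt2high cells (± SE) for the 39 genes tested, by branch, in Glut1 (left) and WT (right) hearts. Filled red points passed an adjusted p of 0.05 in edgeR, which 5 genes did in Glut1 and 0 in WT.

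Promoters of 3 of the 5 called genes are shown as examples, those of Rrm1 and Rrm2, which rose, and of Taldo1, which was called in each fit without 1 library. The Paics window also held CCAAT and is not shown, and that of Adssl1 held none of the motifs. Each sequence shown is the RefSeq window of 300 bases (250 before to 50 after the gene's start in RefSeq, GRCm38.p6), all on the plus strand. The windows are chr7:102441445-102441744 for Rrm1, chr12:24708004-24708303 for Rrm2 and chr7:141391910-141392209 for Taldo1. Distances below are to the RefSeq start, which for Rrm2 and Taldo1 differs from the start in the GENCODE gene coordinates given later. Capitals mark matches to the motifs searched.
Rrm1: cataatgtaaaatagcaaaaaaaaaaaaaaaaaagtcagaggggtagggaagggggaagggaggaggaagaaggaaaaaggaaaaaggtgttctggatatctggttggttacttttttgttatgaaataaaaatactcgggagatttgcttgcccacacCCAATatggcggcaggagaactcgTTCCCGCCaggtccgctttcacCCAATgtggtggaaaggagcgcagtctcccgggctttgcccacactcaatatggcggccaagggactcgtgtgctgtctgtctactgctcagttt
Rrm2: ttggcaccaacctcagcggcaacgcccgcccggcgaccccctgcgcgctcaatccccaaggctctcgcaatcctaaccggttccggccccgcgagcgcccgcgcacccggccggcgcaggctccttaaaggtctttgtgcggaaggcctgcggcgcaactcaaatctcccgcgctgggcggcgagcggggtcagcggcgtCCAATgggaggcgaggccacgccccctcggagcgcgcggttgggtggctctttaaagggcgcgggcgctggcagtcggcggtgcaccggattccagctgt
Taldo1: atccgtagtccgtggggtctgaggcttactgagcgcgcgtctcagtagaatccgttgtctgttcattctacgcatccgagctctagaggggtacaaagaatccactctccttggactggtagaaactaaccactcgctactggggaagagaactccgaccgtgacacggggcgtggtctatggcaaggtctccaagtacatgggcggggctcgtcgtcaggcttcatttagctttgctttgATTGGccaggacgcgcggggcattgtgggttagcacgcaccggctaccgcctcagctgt

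The motifs, searched on both strands, were 3 E2F-type forms (TTTGGCGC, TTTCGCGC and TTCCCGCC), the CCAAT box, 2 forms of the cell cycle homology region found in late cell cycle promoters (TTTGAA and TTCGAA) and an Atf4-type form (TGATGCAA). The Rrm1 window held CCAAT 91 and 45 bases before the start and TTCCCGCC 67 bases before it. The Rrm2 window held CCAAT 50 bases before the start and none of the E2F-type forms searched, and the Taldo1 window held CCAAT on the other strand 9 bases before the start. For 37 of the 40 genes 45 windows were given, of which 20 (of 19 genes) held CCAAT and 4 an E2F-type form (Mthfd1, Ppat, Prps1 and Rrm1). Among all 32851 windows, 37.4% held CCAAT and 2.96% an E2F-type form. The other motifs were in 4 members (Ctps2, Prps2, Rpe and Umps, either TTTGAA or TTCGAA, beside 19.2% of all windows) and in 0 members (TGATGCAA, beside 0.895%). These are matches of letters in a window and describe no binding.

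Ribonucleotide reductase is an enzyme of a large subunit, Rrm1, and a small subunit, which is Rrm2 in dividing cells and Rrm2b outside S phase. It is the target of hydroxyurea, a drug that the study gave to mice in other experiments. Rrm1 (chr7:102441695-102469771, mm10) was at 125, 151, 108 and 83.6 CPM in Tnnt2low cells of hearts 3, 4, 5 and 8, and at 81.0, 87.0, 78.1 and 78.5 CPM in their Tnnt2high cells. It was higher in the Tnnt2low library of each of the 4 hearts, but the groups overlapped, since heart 8 in Tnnt2low lay below heart 4 in Tnnt2high. The log2 fold change was 0.53 (SE 0.17, adjusted p = 0.0482).

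Rrm2 (chr12:24708241-24714146) was at 133, 149, 85.2 and 61.2 CPM in Tnnt2low and at 64.3, 61.3, 58.2 and 41.5 CPM in Tnnt2high cells of the same hearts. Hearts 3 and 4 were far above the rest in Tnnt2low, all 4 hearts were higher in Tnnt2low, and heart 8 in Tnnt2low lay within the Tnnt2high range. With a log2 fold change of 0.93 (SE 0.27, adjusted p = 0.0304), Rrm2 rose the most of the called genes. Rrm2b was at 30.5, 25.5, 34.6 and 38.0 CPM in Tnnt2low and 21.8, 25.2, 22.5 and 22.5 CPM in Tnnt2high cells. Its libraries did not overlap, and its log2 fold change was 0.48 (SE 0.18, adjusted p = 0.078), which did not pass.

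The other deoxynucleotide genes did not pass, and none had libraries that did not overlap. Log2 fold changes were -0.36 (SE 0.42) for Tyms, -0.26 (SE 0.40) for Tk1, which encodes the thymidine kinase of S phase, -0.37 (SE 0.25) for Dtymk, the next kinase of the thymidylate route, and 0.20 (SE 0.39) for Dctd, a deaminase that feeds it. Tyms had 1.93 to 10.9 CPM over the 12 libraries, and Tk1 5.80 to 21.8 CPM.

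Summed G2 and M phase genes and summed S-phase genes each had the same order of the 4 hearts in Tnnt2low cells as Rrm2. Single genes such as Bub1b did not, and in Tnnt2high cells neither sum had the order of Rrm2. The 28 G2 and M genes summed to 2600, 3013, 1474 and 1031 CPM in Tnnt2low cells of hearts 3, 4, 5 and 8 and to 859, 723, 917 and 696 CPM in Tnnt2high cells. Of these 28 genes 17 rose, beside 8.42% of all genes, and the median log2 fold change of the 28 was 1.12. The 39 S-phase genes summed to 1261, 1357, 1220 and 1123 CPM in Tnnt2low and to 1212, 1066, 1324 and 1041 CPM in Tnnt2high cells of these hearts. Of the 39 genes 1 rose, beside 8.42% of all genes (Uhrf1, log2 fold change of 0.83, SE 0.21, adjusted p = 0.017). Their median was -0.07. The part of the other cell cycle genes, of reads outside exons or of the fibroblast and endothelial markers in the Rrm1 and Rrm2 differences was not tested.

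**Figure D3:**
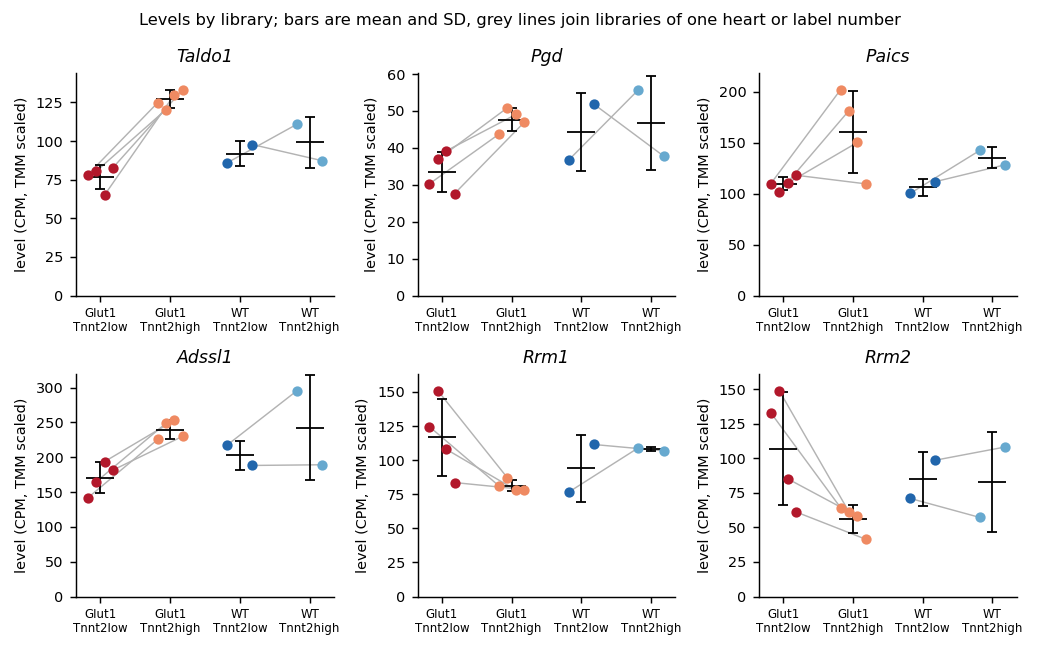
Level of 6 genes (CPM with TMM scaling) in each library of the 4 groups, with the mean and SD in black and grey lines between libraries of 1 heart or label number. Taldo1, Pgd and Adssl1 do not overlap between the Glut1 populations, while Paics, Rrm1 and Rrm2 do.

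Taldo1 showed the clearest separation of the called genes. Transaldolase belongs to the non-oxidative arm. The gene (chr7:141392199-141402968) was at 78.3, 80.5, 65.2 and 82.8 CPM in Tnnt2low cells of hearts 3, 4, 5 and 8 and at 125, 120.4, 130.1 and 133 CPM in their Tnnt2high cells. All 4 Tnnt2low libraries lay below all 4 Tnnt2high libraries, and the log2 fold change was -0.73 (SE 0.13, adjusted p = 0.00303). Of its 50-base words, 12.4% also occur in Gm17823, so that a part of its reads could have been left out or assigned there.

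The remaining pentose phosphate genes had the same sign and did not pass. Pgd, the NADPH-making dehydrogenase of the oxidative arm, was at 30.3, 36.9, 39.2 and 27.6 CPM in Tnnt2low and at 43.8, 50.9, 49.1 and 46.9 CPM in Tnnt2high cells. These groups did not overlap either, with a log2 fold change of -0.51 (SE 0.17, adjusted p = 0.0583), and Pgd passed with DESeq2 (adjusted p = 0.0378). Pgls, between both dehydrogenases of the oxidative arm, was lower in all 4 hearts without overlap (-0.48, SE 0.20, adjusted p = 0.117). Its value was -0.55 to -0.35 in the fits without 1 library, but turned positive, uncalled, in 2 of 24 alternatives. Tkt, which encodes transketolase, had -0.58 (SE 0.30), Rpia -0.68 (SE 0.50), G6pdx -0.53 (SE 0.41) and Rpe -0.19 (SE 0.28), each with overlapping libraries. Rpia and Rpe encode the isomerase and the epimerase of ribulose 5-phosphate.

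Purine synthesis starts with ribose 5-phosphate. Prps1 and Prps2, which encode the synthetases that activate it, had log2 fold changes of 0.12 (SE 0.24) and -0.10 (SE 0.30), and Ppat, the enzyme of the first committed step, had -0.01 (SE 0.16). Of the ring assembly enzymes, Gart had -0.10 (SE 0.15) and Pfas 0.12 (SE 0.24). None of these passed.

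Paics (chr5:76951307-76967509) fell, with 110.0, 102, 110.4 and 118 CPM in Tnnt2low and 202, 182, 150.4 and 109.8 CPM in Tnnt2high cells of hearts 3, 4, 5 and 8. Hearts 3, 4 and 5 were lower in Tnnt2low, whereas heart 8 was slightly higher, and the groups overlapped through heart 8 in Tnnt2high. The log2 fold change was -0.55 (SE 0.16, adjusted p = 0.032). Paics and Ppat lie head to head on chromosome 5, and their annotated ends share 272 bases, so that reads there cannot be told apart unless counting used strand, which is not given in the sources used here.

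Later purine steps had mostly negative values. Atic, which closes the ring, was lower in all 4 hearts without overlap (-0.46, SE 0.18, adjusted p = 0.0999), and Adsl, used in the ring assembly and in the AMP branch, had -0.28 (SE 0.15). In the AMP branch, Adssl1 (chr12:112620045-112641360) was at 142, 165, 194 and 182 CPM in Tnnt2low and at 226, 249, 253 and 230.2 CPM in Tnnt2high cells. The groups did not overlap, and Adssl1 fell with a log2 fold change of -0.49 (SE 0.15, adjusted p = 0.0334). Its widely expressed counterpart Adss, at 0.991 to 14.2 CPM, had 0.03 (SE 0.48). In the GMP branch, Impdh1 had 0.28 (SE 0.26), Impdh2 -0.25 (SE 0.22) and Gmps -0.20 (SE 0.12). Impdh2 is uncertain, since 73.9% of its 50-base words also occur in the pseudogene Impdh2-ps.

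No pyrimidine gene passed. Cad, which carries out the first steps, was at 27.4 to 31.2 CPM in Tnnt2low cells, and in Tnnt2high cells at 51.0 CPM in heart 5 and at no more than 30.6 CPM in the other hearts. It was higher in Tnnt2low in 3 hearts, and its log2 fold change of -0.18 (SE 0.20) turned to 0.08 without the Tnnt2high library of heart 5. Dhodh, the mitochondrial step, was lower in hearts 3, 4 and 8 (-0.36, SE 0.24), and Umps, which yields UMP, had -0.03 (SE 0.21). Ctps, which makes CTP from UTP, was at 102 to 117 CPM in Tnnt2low and 94.4 to 121 CPM in Tnnt2high cells (0.00, SE 0.12). Ctps2 had -0.07 (SE 0.27).

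In the serine and folate branch, Shmt2 and Mthfd2 act in mitochondria and Shmt1 and Mthfd1 in the cytosol. Shmt2 was at 65.0, 63.4, 72.7 and 57.6 CPM in Tnnt2low and at 83.7, 77.2, 76.3 and 82.7 CPM in Tnnt2high cells. Its groups did not overlap, but its log2 fold change of -0.31 (SE 0.13, adjusted p = 0.115) did not pass. Mthfd2 was at 10.3, 10.4, 5.20 and 5.75 CPM in Tnnt2low and at 5.24, 5.20, 0.743 and 5.22 CPM in Tnnt2high cells, the lowest value resting on 3 reads. It was higher in Tnnt2low in 3 hearts by a clear margin and in heart 8 by little, with a log2 fold change of 0.95 (SE 0.49, adjusted p = 0.202). Mthfd1l had 0.50 (SE 0.47), Mthfd1 0.09 (SE 0.18), Shmt1 -0.21 (SE 0.20), Psat1 0.13 (SE 0.28) and Psph -0.19 (SE 0.28). Psat1 and Psph encode the later steps of serine synthesis, and 23.9% of the 50-base words of Psph also occur in Cct6a.

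Where 2 genes encode forms of 1 enzyme, the share of each form per length did not pass the test between the Glut1 populations. Over 7 pairs, the smallest exact two-sided permutation p was 0.229 (0.667 after adjustment over the 7 pairs), where 4 against 4 libraries can reach 0.0286. Within hearts, the smallest exact two-sided sign-flip permutation p was 0.125, for Adssl1, which is the smallest that 4 hearts allow. Adssl1 made up 96.8% (96.0% to 97.8%) of the adenylosuccinate synthase pair in Tnnt2low and 97.8% (96.5% to 99.7%) in Tnnt2high cells, and its share was lower in Tnnt2low in each of the 4 hearts. Rrm2b made up 14.2% ± 6.91 (SD, n = 4) of the small reductase subunits in Tnnt2low and 16.7% ± 2.85 (SD, n = 4) in Tnnt2high cells. Mthfd2 made up 22.1% ± 9.37 (SD, n = 4) against 12.5% ± 6.46 (SD, n = 4) of the Mthfd2 and Mthfd1 pair, and Impdh2 63.6% ± 9.82 (SD, n = 4) against 73.0% ± 9.34 (SD, n = 4) of the Impdh pair. Prps1, Ctps2 and Shmt2 shares were 54.1%, 8.66% and 71.5% in Tnnt2low against 49.3%, 9.23% and 73.3% in Tnnt2high cells.

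**Figure D4:**
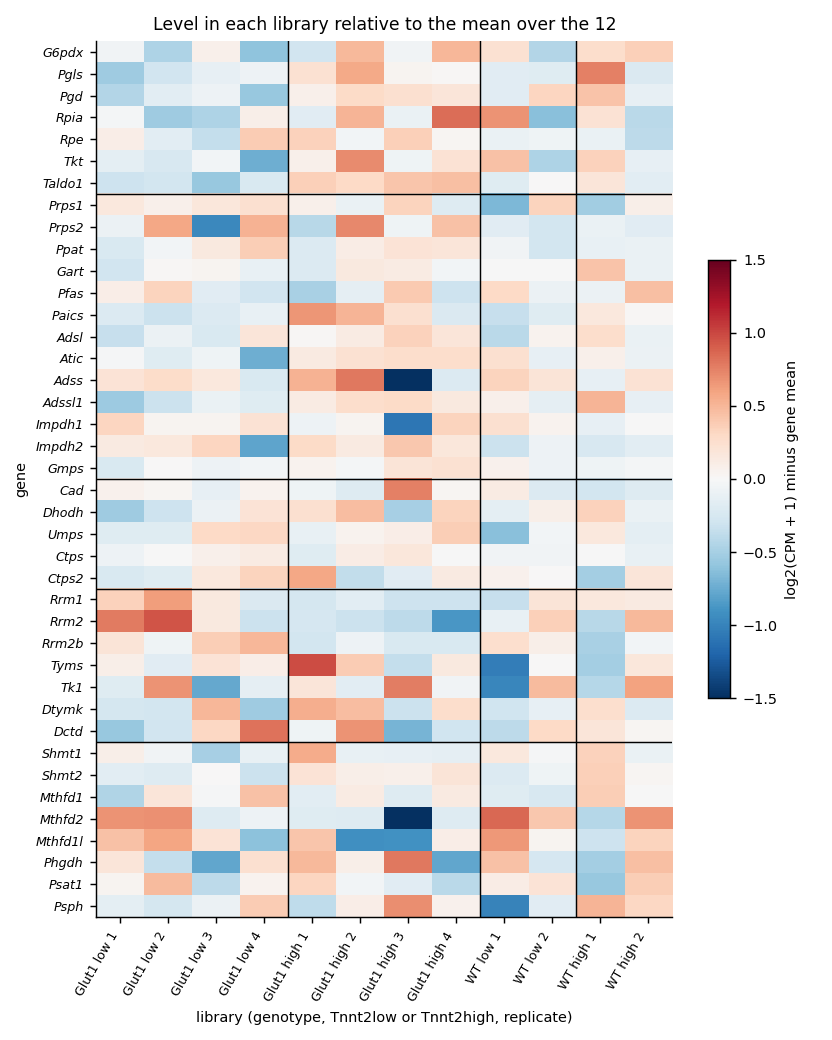
Level of the 40 genes in each library as log2(CPM + 1) minus the gene's mean over the 12 libraries, with horizontal lines between branches and vertical lines between groups. Taldo1 is below its mean in the 4 Glut1 Tnnt2low and above it in the 4 Glut1 Tnnt2high libraries, and Rrm2 is highest in hearts 3 and 4 (Glut1 low 1 and 2).

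Transcript length moved with the population differences over all genes, and GC content little. Across the 12175 tested genes with a known length, Spearman's rho between transcript length and the log2 fold change in Glut1 was 0.53, with -0.07 for GC content. Across the 39 genes of the group these were 0.37 and -0.39. These are correlations across genes of the same libraries and describe them only. When length and GC content entered the fit as an offset, 222 of all genes were called in place of 2052, and the 5 calls of the group were lost: Taldo1 was at -0.28 (adjusted p = 0.264), Adssl1 at -0.24 (0.387), Paics at -0.48 (0.128), Rrm1 at 0.41 (0.207) and Rrm2 at 1.07 (0.0522). Gmps, named after its values were seen, fell under this offset (-0.48, adjusted p = 0.0488). With the offset and the heart as a block, Rrm2 rose (1.01, adjusted p = 0.00804) and Gmps fell (-0.47, adjusted p = 0.0431). Of the 7 pentose phosphate genes, 6 stayed negative with the offset, with a branch median of -0.40.

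**Figure D5:**
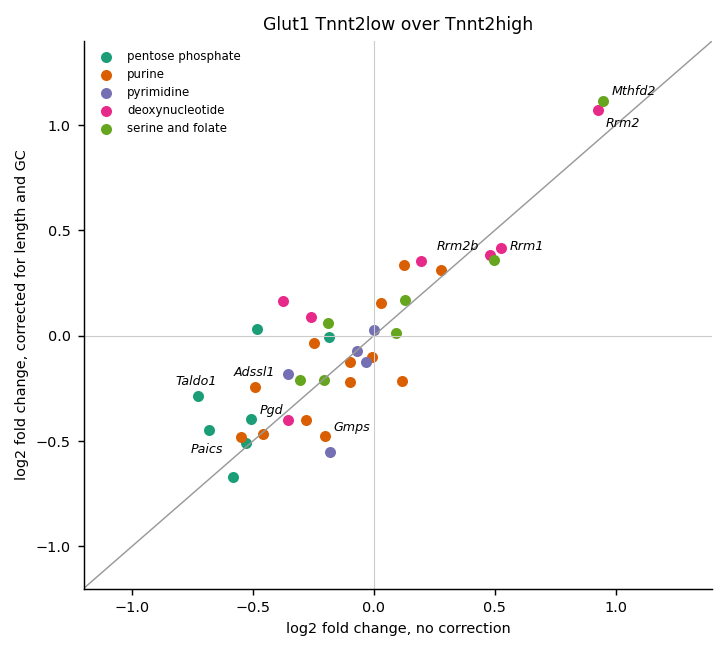
Log2 fold change of Glut1 Tnnt2low over Tnnt2high cells for the 39 genes, without (x axis) and with (y axis) an offset for transcript length and GC content, coloured by branch. The diagonal marks equal values; Taldo1 moved from -0.73 to -0.28, while Rrm2 moved from 0.93 to 1.07.

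In WT hearts, edgeR called 0 of the 39 genes between Tnnt2low and Tnnt2high cells, as it called 0% of all genes, and DESeq2 also called 0 of them. Psph alone reached an unadjusted p under 0.05, beside 3.11% of all genes, with 7.14 and 13.4 CPM in Tnnt2low and 22.2 and 19.2 CPM in Tnnt2high cells (log2 fold change of -1.01, SE 0.40, adjusted p = 1). The libraries did not overlap for 7 of the 39 genes (Impdh1 and Rrm2b higher, and G6pdx, Paics, Shmt2, Mthfd1 and Psph lower), beside 30.2% of all genes. The genes called in Glut1 had the following values in WT. Taldo1 was at 86.0 and 97.7 CPM in Tnnt2low and at 111 and 87.3 CPM in Tnnt2high cells (-0.11, SE 0.18). Paics was at 100.4 and 112 against 143 and 128 CPM (-0.35, SE 0.23), and Adssl1 at 218 and 188 against 296 and 189 CPM (-0.26, SE 0.21). Rrm1 was at 76.6 and 111 against 109 and 107 CPM (-0.20, SE 0.24), and Rrm2 at 71.0 and 98.6 against 57.2 and 108 CPM (0.03, SE 0.38). Of these, Paics alone separated the WT populations.

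No gene of the group passed the test of a difference between the Glut1 and WT population differences, in edgeR (0% of all genes) or DESeq2. At an unadjusted p under 0.05 edgeR gave 2 of 39, beside 4.52% of all genes: Taldo1 with -0.62 (SE 0.22, adjusted p = 0.961) and Rrm1 with 0.72 (SE 0.30, adjusted p = 0.961). Rrm2 had 0.89 (SE 0.46, adjusted p = 0.961). The calls in Glut1 are thus not shown to be particular to Glut1 hearts.

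Between genotypes, edgeR called 0 of the 39 genes in Tnnt2low cells (0.00816% of all genes, which is 1 gene) and 0 in Tnnt2high cells (0% of all genes), and DESeq2 called 0 in either. In Tnnt2low cells no gene of the group reached an unadjusted p under 0.05, beside 2.09% of all genes. The smallest p there was that of Pgd, with -0.40 (SE 0.21, adjusted p = 1), and Taldo1 was the only one of the 39 whose libraries did not overlap, lower in Glut1 (-0.26, SE 0.15), beside 11.4% of all genes. The 7 deoxynucleotide genes had positive values throughout, from 0.07 (Tk1) to 0.60 (Tyms), beside 50.5% of all genes with a positive value. These signs rest in part on WT Tnnt2low replicate 1, where Tk1 was at 5.80 CPM against 17.6 CPM in replicate 2, and Tyms at 1.93 against 5.08 CPM. Without that library 5 of the 7 were positive, with a median of 0.06 in place of 0.19, and 28 of the 39 genes kept their sign.

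In Tnnt2high cells 1 gene, Taldo1, reached an unadjusted p under 0.05, higher in Glut1 (0.36, SE 0.16, adjusted p = 0.899), beside 5.31% of all genes. Libraries did not overlap for 7 of 39 genes, beside 12% of all genes: Rpe, Taldo1, Atic, Impdh2, Gmps and Cad were higher in Glut1 and Rrm1 was lower (-0.41, SE 0.21, adjusted p = 0.899). Rrm2 had -0.56 (SE 0.32), with 1 WT library within and 1 above the Glut1 range, and -0.02 without WT Tnnt2high replicate 2. The 7 serine and folate genes tested were all negative, from -0.03 (Psat1) to -0.84 (Mthfd2), beside 50.4% of all genes, and the 5 pyrimidine genes all positive, from 0.05 (Dhodh) to 0.43 (Cad), beside 49.6%. Without WT Tnnt2high replicate 2, 5 of the serine and folate genes were negative and 3 of the pyrimidine genes positive. The Glut1 Tnnt2low and Tnnt2high libraries enter both kinds of comparison, so these values are not independent of those within Glut1 hearts.

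Neighbouring pathways were described from lists of other genes, with edgeR calls from the main fit. Their values under the length and GC offset, which left far fewer calls over all genes, are not given here. Without both libraries of hearts 4 and 8, edgeR called no gene of all those tested, so the calls of these lists were lost there too. In Glut1 Tnnt2low against Tnnt2high cells, 4 of 14 tested genes of nucleoside salvage fell and 0 rose, beside 8.33% and 8.42% of all genes: Aprt (-1.10, SE 0.24, adjusted p = 0.00752), Hprt (-0.59, SE 0.15, adjusted p = 0.0172), Upp1 (-0.98, SE 0.31, adjusted p = 0.0424) and Adk (-0.44, SE 0.14, adjusted p = 0.0466). Aprt and Hprt recycle adenine and hypoxanthine, Adk adenosine, and Upp1 splits uridine. Hprt was at 55.3 to 74.2 CPM in Tnnt2low and 87.5 to 123 CPM in Tnnt2high cells. Of 14 genes of nucleotide kinases and deoxynucleotide balance, 5 fell and 0 rose, beside the same shares of all genes, namely Guk1 (-0.94, SE 0.17), Nme2 (-0.97, SE 0.23), Nme1 (-0.61, SE 0.17), Dctpp1 (-0.66, SE 0.20) and Dut (-0.55, SE 0.18), with adjusted p from 0.00337 to 0.0461. Guk1 phosphorylates GMP, Nme1 and Nme2 make nucleoside triphosphates, and Dctpp1 and Dut remove unwanted deoxynucleotides.

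The counts in this paragraph stand beside 8.33% of all genes called lower and 8.42% called higher in Glut1 Tnnt2low against Tnnt2high cells. Among 8 tested genes of nucleotide breakdown 1 fell, the nucleotidase Nt5c (-0.81, SE 0.25, adjusted p = 0.0395). Of 10 other NADPH sources and pentose phosphate neighbours, H6pd, the glucose 6-phosphate dehydrogenase of the endoplasmic reticulum, rose (0.55, SE 0.17, adjusted p = 0.0404) and Idh2, the mitochondrial NADPH-making isocitrate dehydrogenase, fell (-0.39, SE 0.11, adjusted p = 0.0257). Of 22 genes of the folate and methionine cycles and 10 of Atf4 and amino acid synthesis, edgeR called 0. At an unadjusted p under 0.05 it gave 4 and 0, beside 31% of all genes, and DESeq2 called 3 (Ahcyl2, Dld and Ggh) and 0. In WT hearts and between genotypes edgeR and DESeq2 called 0 genes of these 6 lists, with 4 at an unadjusted p under 0.05 over the 3 comparisons. Of all genes, 3.11% reached it in WT, 2.09% between genotypes in Tnnt2low and 5.31% in Tnnt2high cells.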

How the data were processed

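RNA was taken from the sorted cells with a column kit and made into mRNA libraries, as described in the study. The authors deposited 1 table of raw read counts per gene for each library. Single-end reads were trimmed for quality, mapped with HISAT2 to mm10 and counted with HTSeq over the union of a gene's exons. The submitters' processing notes also name FastQC and DESeq2. No version, counting mode or use of strand is stated there. The sample records describe heart tissue, the study sorted cells.

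The 5 totals that name no gene stayed out of library sizes and tests. They held 28.8% to 46.5% of records outside exons and 28.2% to 40.9% with several alignments. Counts were fitted with edgeR 4.0.16 in R 4.3.3 (TMM, filterByExpr on the 4 groups, quasi-likelihood test, Benjamini-Hochberg adjustment over 12252 genes), with all 12 libraries in 1 fit, checked on simulated data. No fold minimum was used. A gene was called at an adjusted p under 0.05, and log2 fold changes are from this fit. The alternatives were DESeq2 1.42.0, other scalings, filters and libraries, a block for the heart, and a loess offset (span 0.3) for transcript length with GC content. Lengths, coordinates and shared 50-base words came from GENCODE M21 on mm10, matched for 24031 of 24421 genes, and promoter windows from RefSeq (GRCm38.p6). RPKM used the main transcript. All 40 genes were accounted for by branch, and genes of the other lists were named when called.

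The spread between replicates exceeded counting noise (chi-square of 13.4 to 26.5 per gene in 14 replicate pairs), with a biological coefficient of variation of 0.314. The labels pair both populations of a Glut1 heart, and the deviations of such pairs correlated (r of 0.226, 0.131, 0.118 and 0.107, and 0.271 for the WT label numbers). The members and lists were chosen with earlier results of these data known.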

Additional observations from a re-analysis of the deposited data

Results flagged for a closer look

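In 3 of 80 sets of 4 Glut1 libraries (40 genes in each population), 1 library lay apart from the other 3 by more than Dixon's limit at 95% for 4 values, where chance alone gives about 1 in 20. Cad was at 27.4 CPM in the Tnnt2low library of heart 5, below 30.6 to 31.2 CPM in the other 3. Shmt1 was at 51.8 CPM in the Tnnt2high library of heart 3, above 31.8 to 32.3 CPM. Mthfd2 was at 0.743 CPM in the Tnnt2high library of heart 5, below 5.20 to 5.24 CPM. No gene of the 40 had a population difference that passed the test of a difference between Glut1 and WT (edgeR, 0 of 39 at an adjusted p under 0.05 and 2 at an unadjusted p under 0.05, and 0 with DESeq2).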

How the results depend on the processing

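In Glut1 hearts 5 genes of the group were called in the main fit. The count was 4 to 6 with RLE or upper-quartile scaling, no filter on low counts, DESeq2 or only the Glut1 libraries. It also lay in this range with libraries thinned to the smallest total and with robust dispersion. It was 2 (Rrm2 and Taldo1) with a fold over 1.5, and 1 with the length and GC offset (Gmps, not among the 5). With this offset and the replicate block it was 2 (Rrm2 and Gmps). The replicate block alone called the same 5 genes and changed no other call. Leaving out 1 library at a time gave 1 to 5. It left 1 (Taldo1) without heart 3 or 4 in either population, 2 without heart 5 in Tnnt2high, and 3 without heart 5 in Tnnt2low or heart 8 in Tnnt2high. Taldo1 was called in all 12 of these fits, Adssl1 and Paics in 7, Rrm2 in 6 and Rrm1 in 3. Without both libraries of hearts 4 and 8, chosen after seeing the data, 0 of the group and 0 of all genes were called by edgeR, with 4 of the group at an unadjusted p under 0.05. Taldo1 was then at -0.83 (adjusted p = 0.102) and Rrm2 at 0.83 (adjusted p = 0.195), with 2 libraries left per Glut1 population. The cause was not tested. No alternative called a gene of the group in the other 4 comparisons, and each alternative moved an isoenzyme share difference by less than the SD between replicates. Without 1 library, the difference turned sign for Prps1 (-0.75 to 8.59 percentage points) and Ctps2 (-1.56 to 1.09), and ranged from -12.2 to -4.71 for Impdh2, 5.61 to 12.5 for Mthfd2 and -5.43 to -0.31 for Rrm2b. Low genes such as Mthfd2, Tyms and G6pdx had standard errors of 0.41 to 0.49 in Glut1. Differences well above these errors could still go uncalled, as that of Mthfd2 did (log2 fold change of 0.95, adjusted p = 0.202, edgeR).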

Other observations

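Prps2, which is X-linked, differed between hearts more than between populations. It was at 53.7 and 51.6 CPM in Tnnt2low and at 59.1 and 48.6 CPM in Tnnt2high cells of hearts 4 and 8, whose libraries hold Ddx3y. The other 8 libraries, WT included, were at 17.8 to 33.9 CPM, without overlap. The other X-linked genes of the group did not separate these libraries: Prps1 was at 17.5 to 24.2 against 12.3 to 25.8 CPM, G6pdx at 2.56 to 6.64 against 2.99 to 5.92 CPM and Ctps2 at 9.58 to 16.1 against 8.55 to 19.4 CPM. These sets of libraries are not groups of the study, and the difference was noticed in the data and not tested.

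The Tnnt2high library of heart 5 had the lowest value of the 12 for 3 purine or folate genes: Adss at 0.991 CPM beside 6.52 to 14.2 CPM in the others, Impdh1 at 8.42 beside 17.3 to 24.2 CPM, and Mthfd2 at 0.743 beside 4.27 to 11.9 CPM. Dctd was also lowest there, at 4.96 CPM. In the same library Cad had its highest value, 51.0 CPM beside 24.4 to 32.6 CPM. The purine genes Prps1 (25.8 CPM), Adsl (151 CPM), Atic (36.2 CPM) and Impdh2 (37.2 CPM) were highest there too, as were Ctps, Tk1, Psph and Phgdh. The library was thus not low for purine or folate genes as a set, and its difference from the others was not tested.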
